A study of Mus musculus with 8 samples.

Results

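The keratins and ductal metaplasia markers described here are 9 genes, namely 6 keratin genes (*Krt7*, *Krt8*, *Krt18*, *Krt19*, *Krt20* and *Krt23*), the transcription factor genes *Sox9* and *Onecut1*, and *Spp1*, which encodes osteopontin. They were taken by gene name from the RPKM files and are 9 of 48709 genes listed. RNA-Seq was done on whole pancreas of male mice, 8 weeks old, killed 24 hours after FAEE-SAP or saline. FAEE-SAP is a model of alcohol-related severe acute pancreatitis made by injecting POA, a fatty acid, together with ethanol. The study asked how loss of *Pfkfb3*, a gene of glycolytic control, changes that pancreatitis. There were 2 libraries in each of 4 groups, WT with saline, WT with FAEE-SAP, cKO with saline and cKO with FAEE-SAP. The cKO mice carried floxed *Pfkfb3* and Cre under the *Pdx1* promoter, which is active in pancreatic epithelium. Which cells kept the gene was not examined here. Per the paper's methods, the WT mice were bought from a supplier, and they are not described as littermates with Cre or with the floxed alleles. The effect of the deletion therefore cannot be told apart from that of Cre, of the line or of the source of the mice. No source states how many mice gave each library, so the p-values below measure only the spread between these libraries.

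Keratins are intermediate filament proteins that assemble only as pairs of a type II chain with a type I chain. Acinar cells of the pancreas carry KRT8 and KRT18 and can add KRT19 and KRT20 beneath their membranes, while KRT7 and KRT19 are the usual keratin marks of duct cells. In acinar-to-ductal metaplasia, injured acinar cells lose enzyme expression and take on duct genes, and SOX9, ONECUT1 and osteopontin are commonly used to follow that change. *Krt7* and *Krt8* encode type II chains, and *Krt18*, *Krt19*, *Krt20* and *Krt23* encode type I chains.

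In GRCm38, *Krt8* (chr15:101996698-102004482, minus strand) and *Krt18* (chr15:102028180-102032027, plus strand) lie 23.7 kb apart, and *Krt7* lies 566 kb from *Krt8* at chr15:101411043-101430313. The genes *Krt20* (chr11:99428403-99438150, minus strand) and *Krt23* (chr11:99477974-99493137, minus strand) lie 39.8 kb apart, with *Krt19* 648 kb farther on at chr11:100140810-100148665. *Sox9* is at chr11:112782224-112787760, *Onecut1* at chr9:74861921-74891781 and *Spp1* at chr5:104435118-104441050, all on the plus strand.

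The bases before the start site are shown for the 4 genes that rose in WT pancreas with FAEE-SAP, because these are the genes the results turn on. The sequences come from RefSeq on GRCm38.p6, run 5′ to 3′ on the strand of the gene and stop before the start site of both RefSeq and GENCODE. They cover chr15:102004483-102004592 for *Krt8*, chr15:102027966-102028179 for *Krt18*, chr11:99438154-99438403 for *Krt20* and chr5:104434861-104435110 for *Spp1*. Capitals mark matches to the motifs named after them.
Krt8: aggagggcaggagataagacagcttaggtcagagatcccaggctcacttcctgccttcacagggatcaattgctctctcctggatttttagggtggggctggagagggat
Krt18: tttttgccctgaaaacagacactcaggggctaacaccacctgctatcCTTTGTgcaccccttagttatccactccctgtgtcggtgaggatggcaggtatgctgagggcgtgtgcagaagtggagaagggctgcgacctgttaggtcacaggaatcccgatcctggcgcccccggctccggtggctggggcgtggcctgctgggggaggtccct
Krt20: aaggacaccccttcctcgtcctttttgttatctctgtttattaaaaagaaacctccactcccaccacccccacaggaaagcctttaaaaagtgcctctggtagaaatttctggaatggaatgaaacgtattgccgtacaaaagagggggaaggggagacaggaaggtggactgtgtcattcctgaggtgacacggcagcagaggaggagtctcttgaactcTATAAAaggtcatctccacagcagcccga
Spp1: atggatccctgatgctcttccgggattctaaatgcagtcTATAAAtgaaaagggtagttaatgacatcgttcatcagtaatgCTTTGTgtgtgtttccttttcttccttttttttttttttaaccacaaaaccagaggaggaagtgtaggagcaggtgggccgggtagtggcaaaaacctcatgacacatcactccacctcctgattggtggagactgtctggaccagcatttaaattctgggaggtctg
The search used windows of 250 bases before to 50 bases after the RefSeq start, on both strands, and 7 of the 9 genes had a window (*Krt19* and *Sox9* had none). A TATA box (TATAAA) was found at -29 to -24 from the start in *Krt20*, at -211 to -206 in *Spp1* and at -1 to 5 in *Krt8*, where a second match on the other strand overlapped it. The RefSeq start of *Krt8* lies 140 bp inside the GENCODE gene. TATA boxes were found in 13.6% of all 32851 windows. The Sox core (ACAAAG) matched in *Krt18* and *Spp1* and in 18.7% of all windows, and a GC box (GGGCGG) matched in *Krt7* and *Onecut1* and in 35.7% of all. An NF-kB motif (GGNNTTTCC) matched in *Krt23* and in 5.82% of all. Motifs for AP-1 (TGANTCA, 7.81% of all), CRE (TGACGTCA, 1.79%), STAT (TTCNNNGAA, 8.30%) and ONECUT1 (ATCGAT, 0.925%) were not found in the 7 windows. These matches are letters in a window and no measurement of binding.

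The libraries held 22.9 to 37.8 M reads as worked out from the RPKM values, and the replicates of a group correlated at 0.947 to 0.959 across genes. Values are given as scaled RPKM, the deposited RPKM divided by 1 factor per library, found with all 8 libraries together so that the median gene has about the same level in each. The factors ran from 0.621 to 2.02 and were highest in WT FAEE-SAP, whose values were therefore scaled down and where the 10 genes with the highest RPKM took 49.4% and 51.2% of the RPKM sum against 58.9% to 63.7% in the other libraries. The enzyme genes of acinar cells were the most abundant markers in all 8 libraries, with a summed level of 82868 to 368710 scaled RPKM, which is what pancreas tissue holds. The cKO saline library 1 stood apart. It held markers of intestinal epithelium at a summed 27.0 scaled RPKM, against 0.0846 to 0.298 in the other libraries, with *Fabp2* at 8.89, *Alpi* at 5.20 and *Apoa4* at 10.7. *Fabp2* and *Alpi* were at 0 in the other 7 libraries. The cKO treatment values of the members tested are therefore given with and without it. Where a library is left out, its arm has 1 library, which is assumed to vary like the others of the fit. In whole tissue, fewer cells of a type and less RNA per cell cannot be told apart.

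With FAEE-SAP, WT pancreas had more RNA of the simple keratin pair *Krt8* and *Krt18*, of *Krt20* and of *Spp1*, while the transcription factor genes were not called and their direction turned with the scaling. In WT, 4 of the 8 members tested were called higher with FAEE-SAP (3.11% of the 10894 genes tested were called higher), and 0 were called lower (3.78% of all genes). A call is a Benjamini-Hochberg adjusted p-value under 0.05 in limma with a difference of at least 2-fold. *Krt20* reached the minimum RPKM for testing only through the FAEE-SAP libraries, so it could enter these counts only by being high there. The same holds for *Krt20* in the cKO treatment test and in the cKO counts and medians given below. The median log2 difference over the 8 was 1.17, beside 0.02 over all genes tested. From RPKM as deposited, without the factors, 65.9% of all genes tested were called higher and 0.789% lower in WT with FAEE-SAP, and 39.6% were called lower and 0.663% higher in cKO than in WT after FAEE-SAP. Counts from deposited values given further on stand beside these shares. In cKO pancreas, 0 of 8 members were called higher (0.0531% of 9423 genes) and 0 lower (0% of all genes), with a median of 0.51 beside -0.04 over all genes (0.46 beside -0.04 without cKO saline library 1). In the cKO comparison limma called 5 genes in all, 901 had an unadjusted p-value under 0.05, and voom on reads worked out from the RPKM called 4 genes and no member. The treatment comparisons and the genotype comparisons share libraries, so they are not independent of each other.

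**Figure D1:**
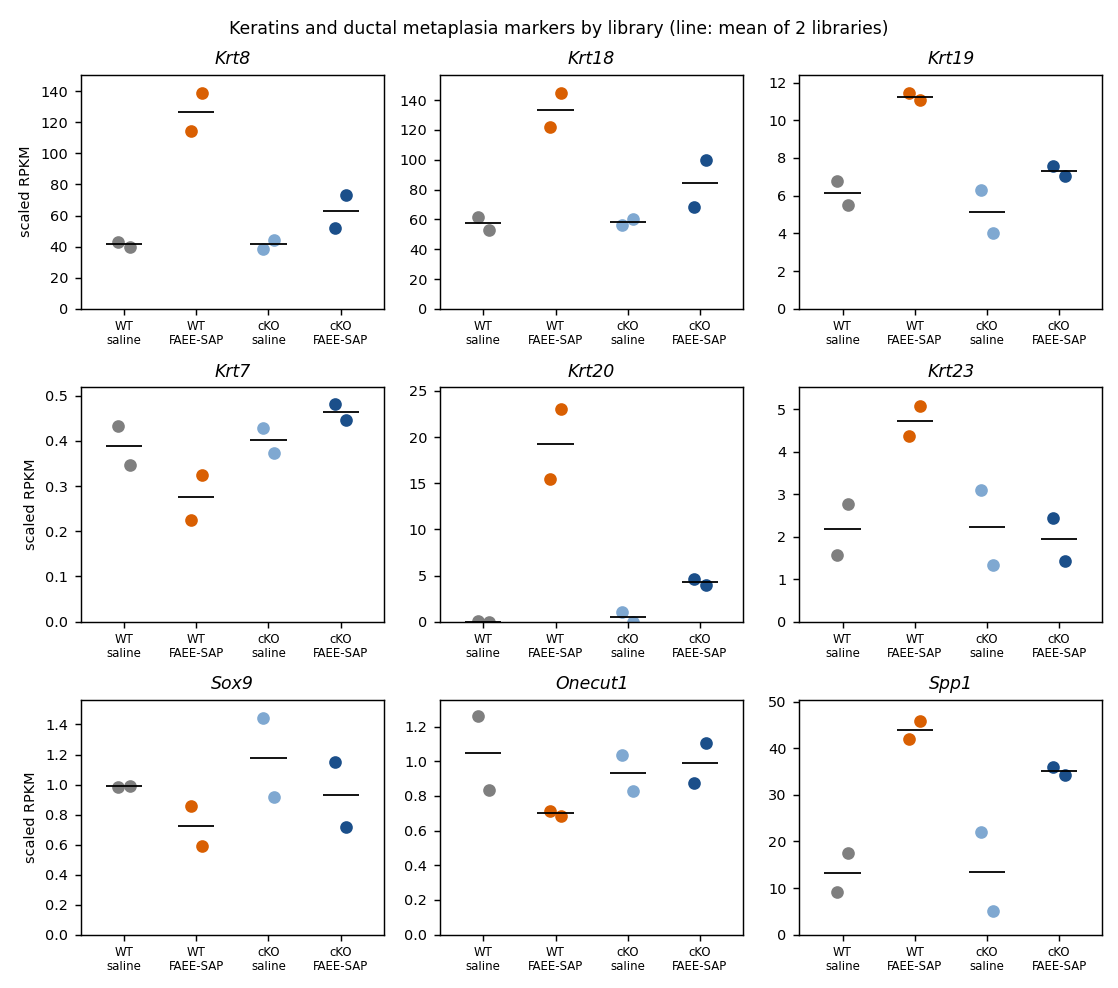
Scaled RPKM (vertical axes, linear from 0) of the 9 genes in each of the 8 libraries, by group, with a line at the mean of the 2 libraries. In WT FAEE-SAP, *Krt20* reached 15.4 and 23.0 scaled RPKM against 0.0251 and 0 in WT saline, and *Krt8*, *Krt18*, *Krt19*, *Krt23* and *Spp1* were also above every other group, while *Krt7*, *Sox9* and *Onecut1* were not (as deposited, *Onecut1* was).

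*Krt8*, which encodes the type II chain of simple epithelium, was at 43.1 and 39.8 scaled RPKM in WT saline, 114 and 138 in WT FAEE-SAP, 38.7 and 44.5 in cKO saline, and 51.8 and 73.4 in cKO FAEE-SAP. Both WT FAEE-SAP libraries were above all others, the cKO FAEE-SAP libraries came next without overlapping either saline group, and the saline groups overlapped. *Krt8* rose 3.03-fold in WT (log2 difference 1.60, SE 0.17, limma with Benjamini-Hochberg adjustment, adjusted p = 0.00817). The log2 difference in cKO was 0.57 (SE 0.24, 95% interval -0.05 to 1.19, limma adjusted p = 0.543), or 0.47 without cKO saline library 1 (adjusted p = 0.780). The WT call was lost without WT FAEE-SAP replicate 2 (limma adjusted p = 0.0717).

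*Krt18*, which encodes the type I partner of KRT8, was at 61.7 and 53.1 scaled RPKM in WT saline, 122 and 145 in WT FAEE-SAP, 56.6 and 60.5 in cKO saline, and 68.3 and 100 in cKO FAEE-SAP. The order of the groups was that of *Krt8*, and here too the saline groups overlapped. *Krt18* rose 2.32-fold in WT (log2 difference 1.22, SE 0.17, limma adjusted p = 0.0180), and its log2 difference in cKO was 0.50 (SE 0.24, 95% interval -0.13 to 1.13, limma adjusted p = 0.566), or 0.45 without cKO saline library 1 (adjusted p = 0.783). The WT call did not hold when any of the 4 libraries was left out (limma adjusted p between 0.0538 and 0.122). *Krt8-ps*, a pseudogene of *Krt8* in the files, was at 0 in all 8 libraries, and how reads shared with other pseudogene copies of *Krt8* and *Krt18* were counted is not given in the sources used here.

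*Krt19*, a type I keratin of duct cells, was at 6.76 and 5.51 scaled RPKM in WT saline, 11.5 and 11.05 in WT FAEE-SAP, 6.30 and 4.001 in cKO saline, and 7.56 and 7.04 in cKO FAEE-SAP. The WT FAEE-SAP libraries were the highest, and the cKO FAEE-SAP libraries lay just above the overlapping saline groups. In WT the difference was 1.83-fold (log2 difference 0.87, SE 0.19, limma adjusted p = 0.0494), so it was not called, being under the 2-fold minimum. Its adjusted p-value was close to 0.05 and lay above it with factors from the 4 libraries alone, no minimum RPKM, a pseudocount of 0.01, no trend, all 8 libraries in 1 model, the replicate block, voom and each library left out (limma adjusted p between 0.0519 and 0.187), while with RPKM as deposited *Krt19* was called (log2 difference 2.18, adjusted p = 0.00126). In cKO the log2 difference was 0.53 (SE 0.27, limma adjusted p = 0.569), and 0.85 without cKO saline library 1 (adjusted p = 0.656) or 0.21 without library 2 (adjusted p = 0.810).

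*Krt7*, the type II keratin usually paired with KRT19 in ducts, was the least abundant of the 9 genes in WT FAEE-SAP, at 0.226 and 0.324 scaled RPKM. It was at 0.432 and 0.347 in WT saline, 0.429 and 0.373 in cKO saline, and 0.481 and 0.446 in cKO FAEE-SAP. On this scale WT FAEE-SAP lay below every other group and cKO FAEE-SAP above every other group, with the saline groups overlapping. As deposited, WT FAEE-SAP (0.457 and 0.628 RPKM) lay above both saline groups (0.248 to 0.315) and overlapped cKO FAEE-SAP (0.503 and 0.435). *Krt7* was under the minimum RPKM of the treatment comparisons and was not tested there.

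*Krt20*, a type I keratin best known from intestinal and gastric epithelium, was at 0.0251 and 0 scaled RPKM in WT saline, 15.4 and 23.0 in WT FAEE-SAP, 1.08 and 0 in cKO saline, and 4.60 and 3.92 in cKO FAEE-SAP. These values stand for about 1 and 0 reads in WT saline, 1379 and 2812 in WT FAEE-SAP, 49 and 0 in cKO saline, and 256 and 228 in cKO FAEE-SAP. *Krt20* was thus at the limit of detection in 3 of the 4 saline libraries, where 3 reads, the limit that a count of 0 allows, equal 0.0658 to 0.0754 scaled RPKM. Both FAEE-SAP groups were above both saline groups.

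The ratio of *Krt20* in WT FAEE-SAP to WT saline, from summed reads over library size and factor, was 1692, with an exact 95% interval of 304 to 66850 that covers counting error only. On the log2(scaled RPKM + 0.1) scale, which understates the change of a gene near 0, *Krt20* rose by 7.40 in WT (SE 0.28, limma adjusted p = 0.000898). In cKO the ratio from summed reads was 7.42 (exact 95% interval 5.52 to 10.2), and the log2 difference was 3.66 (SE 1.15, limma adjusted p = 0.453). The cKO value rests on cKO saline library 1, the library with intestinal markers, which held all 49 saline reads. Without it, *Krt20* was at least 57.1-fold higher in cKO FAEE-SAP than the 3 reads that a count of 0 allows in the remaining library, and the log2 difference was 5.44 (SE 0.27, limma adjusted p = 0.0709). Without the other cKO saline library the log2 difference was 1.88 (limma adjusted p = 0.289).

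*Krt23*, a less studied type I keratin, was at 1.58 and 2.78 scaled RPKM in WT saline, 4.38 and 5.07 in WT FAEE-SAP, 3.11 and 1.35 in cKO saline, and 2.43 and 1.44 in cKO FAEE-SAP. The WT FAEE-SAP libraries were above all others, and the other groups overlapped. In WT the log2 difference was 1.13 (SE 0.30, limma adjusted p = 0.0782), and in cKO it was -0.12 (SE 0.46, limma adjusted p = 0.944). The cKO value turned to 0.45 without cKO saline library 1 (limma adjusted p = 0.816) and was -0.70 without library 2 (adjusted p = 0.649).

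*Sox9*, which encodes a transcription factor of ducts and of pancreatic progenitors, was at 0.983 and 0.991 scaled RPKM in WT saline, 0.854 and 0.588 in WT FAEE-SAP, 1.44 and 0.915 in cKO saline, and 1.15 and 0.714 in cKO FAEE-SAP. WT FAEE-SAP lay below WT saline without overlap, while the cKO groups overlapped. The log2 difference was -0.42 in WT (SE 0.26, 95% interval -1.07 to 0.22, limma adjusted p = 0.347) and -0.31 in cKO (SE 0.33, limma adjusted p = 0.760), and with RPKM as deposited both signs turned (0.77 and 0.28). The cKO value was -0.011 without cKO saline library 1 (limma adjusted p = 0.993) and -0.62 without library 2 (adjusted p = 0.661).

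*Onecut1*, which encodes a transcription factor of duct development, was at 1.26 and 0.832 scaled RPKM in WT saline, 0.712 and 0.687 in WT FAEE-SAP, 1.04 and 0.827 in cKO saline, and 0.875 and 1.10 in cKO FAEE-SAP. WT FAEE-SAP lay below the other 3 groups, which overlapped each other. The log2 difference was -0.49 in WT (SE 0.27, 95% interval -1.16 to 0.18, limma adjusted p = 0.301), or 0.70 with RPKM as deposited, and 0.08 in cKO (SE 0.23, limma adjusted p = 0.925). The cKO value was 0.23 without cKO saline library 1 (limma adjusted p = 0.861) and turned to -0.069 without library 2 (adjusted p = 0.949). At 0.588 to 1.44 scaled RPKM, *Sox9* and *Onecut1* were measured at a small part of the level of *Krt8* in every library.

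*Spp1*, whose product osteopontin is secreted by duct cells and macrophages and binds integrins and CD44, was at 9.08 and 17.5 scaled RPKM in WT saline, 42.0 and 45.9 in WT FAEE-SAP, 22.0 and 5.06 in cKO saline, and 36.0 and 34.2 in cKO FAEE-SAP. Both FAEE-SAP groups were above both saline groups, and the saline libraries of each genotype were far apart. *Spp1* rose 3.47-fold in WT (log2 difference 1.79, SE 0.32, limma adjusted p = 0.0329). In cKO the log2 difference was 1.72 (SE 0.69, 95% interval -0.05 to 3.50, limma adjusted p = 0.529). That value is an average over cKO saline libraries that stood far apart, and it was 2.77 without library 1 (limma adjusted p = 0.207) and 0.67 without library 2 (adjusted p = 0.507). The WT call was lost in 3 of the 4 fits that left out a library (limma adjusted p between 0.0586 and 0.179 in those 3), with no minimum RPKM (0.0759) and with all 8 libraries in 1 model (0.107).

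**Figure D2:**
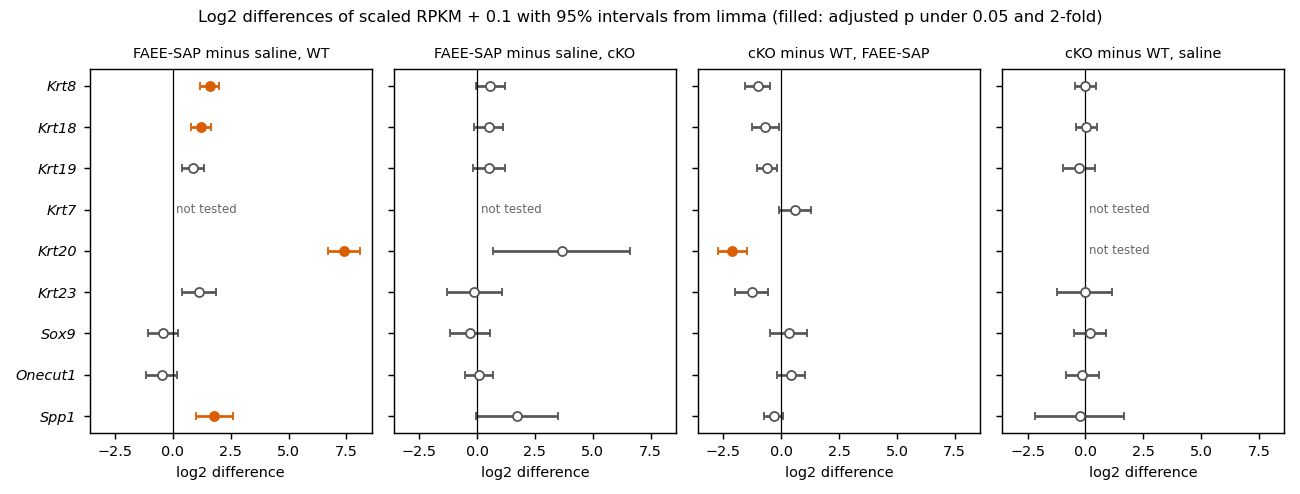
Log2 differences of scaled RPKM + 0.1 (horizontal axes) with 95% intervals from limma for the 9 genes in 4 comparisons, filled where the adjusted p-value was under 0.05 and the difference at least 2-fold. *Krt7* was not tested in the treatment comparisons or after saline, and *Krt20* was not tested after saline, so these have no point. *Krt8*, *Krt18*, *Krt20* and *Spp1* are filled for treatment in WT, none is filled in cKO, and *Krt20* alone is filled for cKO minus WT after FAEE-SAP.

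Between the genotypes after FAEE-SAP, *Krt20* was lower in cKO, at 4.60 and 3.92 scaled RPKM against 15.4 and 23.0 in WT. It was the 1 member of 9 called lower (0.354% of 11008 genes tested were called lower), and 0 were called higher (0.818% of all genes). Over all genes 2160 had an unadjusted p-value under 0.05 in limma, and voom likewise called *Krt20* and no other member. *Krt20* was 4.36-fold lower (log2 difference -2.12, SE 0.26, limma adjusted p = 0.0301). The call was lost without the intensity trend (limma adjusted p = 0.0540), with no minimum RPKM (0.116), with all 8 libraries in 1 model (0.243) and when any of the 4 libraries was left out (0.0567 to 0.219).

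The other keratins that were high in WT FAEE-SAP were also lower in every cKO FAEE-SAP library, without passing the test. *Krt8* differed by -1.03 on the log2 scale (SE 0.23, 95% interval -1.59 to -0.47, limma adjusted p = 0.110), and *Krt23* by -1.28 (SE 0.30, limma adjusted p = 0.116). *Krt18* differed by -0.69 (SE 0.23, limma adjusted p = 0.198) and *Krt19* by -0.62 (SE 0.18, limma adjusted p = 0.167). *Krt8* was called with all 8 libraries in 1 model (limma adjusted p = 0.0493) and with replicate number as a block (0.0249), and *Krt23* with the block (0.0389). *Spp1* differed by less, at -0.32 (SE 0.17, 95% interval -0.73 to 0.09, limma adjusted p = 0.352).

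The 3 low members lay on the other side. *Krt7* was 0.60 higher in cKO on the log2 scale (SE 0.28, limma adjusted p = 0.313), *Onecut1* 0.44 higher (SE 0.24, limma adjusted p = 0.387) and *Sox9* 0.31 higher (SE 0.32, limma adjusted p = 0.646). With RPKM as deposited all 3 were lower in cKO instead (-0.16, -0.44 and -0.56).

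After saline, no member was told apart between the genotypes. The libraries of cKO and WT overlapped for all 9 genes, and 0 of the 7 tested were called in either direction (0% of 8715 genes higher and 0% lower). For some genes the overlap came only through cKO saline library 1, the library with intestinal markers. Library 2 alone lay below both WT libraries for *Krt19*, *Krt23*, *Sox9*, *Onecut1* and *Spp1*, and above both for *Krt8*. The gap was small for *Onecut1* (0.827 against 0.832 and 1.26) and larger for *Spp1* (5.06 against 9.08 and 17.5). Over all genes, 198 had an unadjusted p-value under 0.05 in limma, and voom also called 0 genes. *Krt8* differed by 0.0023 on the log2 scale with a 95% interval of -0.45 to 0.46, *Krt18* by 0.03 with an interval of -0.43 to 0.49, and *Spp1* by -0.25 with an interval of -2.16 to 1.66.

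The test of whether FAEE-SAP acted differently in the genotypes, the interaction, called 0 of 9 members (0.0449% of 11133 genes were called higher and 0.0269% lower). Over all genes 1398 had an unadjusted p-value under 0.05 in limma, and voom called 8 genes and no member. The difference in log2 change, cKO minus WT, was -1.03 for *Krt8* (SE 0.29, unadjusted p = 0.00904, limma adjusted p = 0.269), -0.72 for *Krt18* (SE 0.30, adjusted p = 0.390) and -3.74 for *Krt20* (SE 1.36, adjusted p = 0.343). For *Krt20* the value was -1.96 (limma adjusted p = 0.208) without cKO saline replicate 1 and -5.53 (limma adjusted p = 0.0251) without cKO saline replicate 2. In the second of these fits the cKO saline arm is the library with intestinal markers alone, and its spread is taken from the other groups. For *Spp1* it was -0.07 (SE 0.87, 95% interval -2.12 to 1.98), and 0.98 (limma adjusted p = 0.447) or -1.12 (adjusted p = 0.536) without cKO saline replicate 1 or 2.

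The mix of keratins was examined within each library, where the scaling factor drops out. *Krt8* and *Krt18* together made up most of the summed RPKM of the 6 keratins in every library. *Krt20* was 5.75% and 7.13% of that sum in WT FAEE-SAP, 3.40% and 2.11% in cKO FAEE-SAP, 1.02% and 0% in cKO saline, and 0.0221% and 0% in WT saline. *Krt20* was therefore above *Krt19* in WT FAEE-SAP (*Krt19* at 4.28% and 3.42%) and below it in cKO FAEE-SAP (5.59% and 3.78%).

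The ratio of *Krt8* to *Krt18* RPKM was 0.937 and 0.954 in WT FAEE-SAP, against 0.699 and 0.749 in WT saline, 0.685 and 0.735 in cKO saline, and 0.758 and 0.735 in cKO FAEE-SAP. WT FAEE-SAP stood above the other 3 groups, which lay close together. The mean was 0.945 ± 0.0125 (SD, n = 2) with FAEE-SAP and 0.724 ± 0.0354 (SD, n = 2) with saline in WT, with p = 0.333 in an exact two-sided permutation test, the smallest p-value that 2 libraries against 2 allow. In cKO it was 0.747 ± 0.0169 (SD, n = 2) and 0.710 ± 0.0356 (SD, n = 2), with overlap. The ratio of type II to type I keratins was 0.747 and 0.753 in WT FAEE-SAP and 0.584 to 0.681 in the other libraries.

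**Figure D3:**
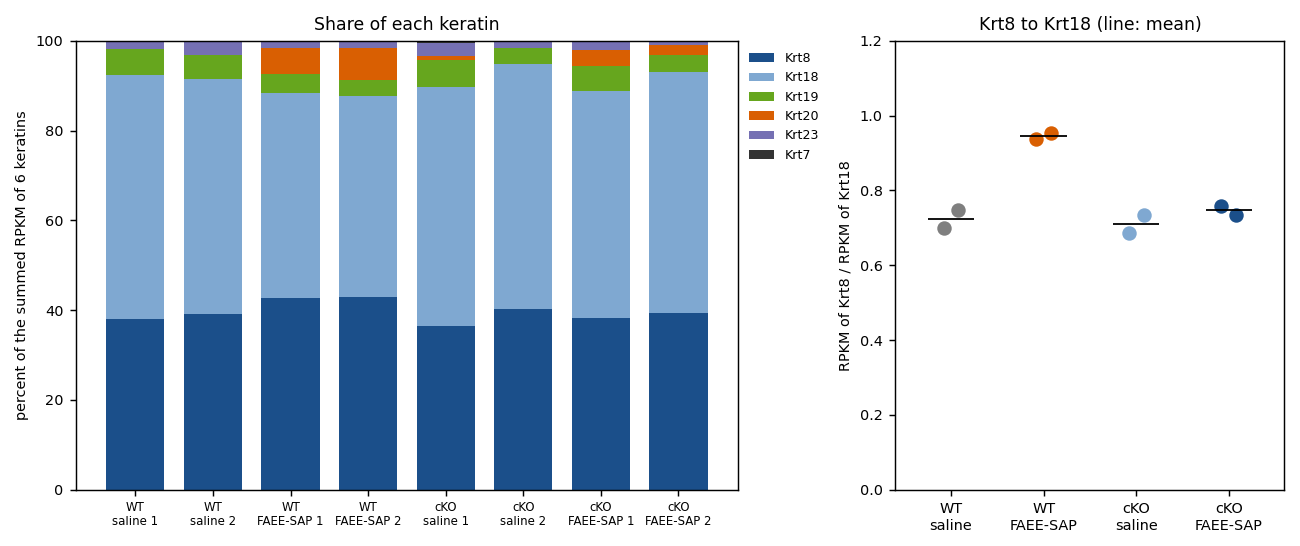
Left, the share of each keratin in the summed RPKM of the 6 keratins (percent, bars from 0 to 100) in each library. Right, the ratio of *Krt8* to *Krt18* RPKM in each library with a line at the group mean, at 0.937 and 0.954 in WT FAEE-SAP and between 0.685 and 0.758 in the other libraries.

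In order of level within a group, *Krt18* was the most abundant of the 9 genes in all 4 groups, followed by *Krt8* and *Spp1*. *Krt18* and *Krt8* overlapped in both FAEE-SAP groups and not in the saline groups. *Krt20* was last in WT saline, rank 8 in cKO saline, rank 5 in cKO FAEE-SAP and rank 4 in WT FAEE-SAP, where it was above *Krt19* without overlap. The rank in cKO saline rests on library 1, the library with intestinal markers (1.08 scaled RPKM). In library 2 *Krt20* was at 0 and last. *Onecut1* and *Sox9* were neighbours with overlapping values in all 4 groups.

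Markers of other cells were read in the same libraries. Of 8 neutrophil genes, 5 were tested in WT, and these reached the minimum RPKM only through the FAEE-SAP libraries, so that a count of calls among them would follow from the filter. *S100a8* was 5.79 and *S100a9* 5.12 higher on the log2 scale. The summed level of the 8 genes was 1.33 to 2.25 scaled RPKM in WT saline, 53.1 to 58.6 in WT FAEE-SAP, 1.27 to 3.72 in cKO saline and 12.5 to 19.8 in cKO FAEE-SAP. Most of that sum was *S100a8* and *S100a9*. For cKO against WT after FAEE-SAP, all 5 genes tested had a negative log2 difference, from -2.30 for *S100a8* to -0.12 for *Csf3r*. Of these, *Cxcr2* (-0.55) was tested only through the WT libraries. The granule genes *Mpo* and *Elane* did not exceed 0.155 scaled RPKM in any library and were at 0 in both WT FAEE-SAP libraries. In cKO FAEE-SAP, *Mpo* was at 0.101 and 0.155 and *Elane* at 0 and 0.144. The paper measured MPO as protein by staining and reported fewer positive cells in cKO than in WT with FAEE-SAP. Of 12 macrophage genes, which bear on *Spp1*, 10 were tested in WT and 1 was called higher, *Cd14* (log2 difference 3.38), with a list median of 0.05. *Cd14* was also called lower in cKO than in WT after FAEE-SAP (log2 difference -2.34, limma adjusted p = 0.0150), where 7 of the 10 genes tested had a positive difference and the list median was 0.56, or -0.39 with RPKM as deposited. The summed level of the list was 79.6 to 97.7 in WT saline, 87.3 to 115 in WT FAEE-SAP, 92.1 to 94.6 in cKO saline and 118 to 135 in cKO FAEE-SAP. In cKO 0 of 9 macrophage genes tested were called, and 8 of the 9 had a positive log2 difference, with a median of 0.81 (9 of 9 positive, 0 called and a median of 0.68 without cKO saline library 1). With deposited values 10 of 10 were called higher in WT, of which *Gpnmb* was tested only through the FAEE-SAP libraries. The part of these cells in the changes of *Krt20* and *Spp1* was not tested. Markers of mesothelium, the lining of the organ that also carries simple keratins, went from a sum of 3.07 to 3.90 in WT saline to 1.31 to 1.47 in WT FAEE-SAP, and were at 3.998 to 6.82 in cKO saline and 1.96 to 5.48 in cKO FAEE-SAP. Of these, 2 genes were tested in WT, *Gpm6a* (log2 difference -1.32, limma adjusted p = 0.0421) and *Msln* (-0.59, not called). *Gpm6a* was tested only through the saline libraries, where it was high, and with RPKM as deposited the values were -0.28 and 0.59, neither called.

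The genes of acinar cells moved the other way. All 9 acinar enzyme genes were called lower in WT FAEE-SAP (median log2 difference -1.99), and 7 of the 9 were called higher in cKO than in WT after FAEE-SAP. With RPKM as deposited, the sign of each call was the same, but 1 gene, *Cpb1*, was called lower in WT and 0 were called higher in cKO than in WT. Their summed level was 267000 to 311120 scaled RPKM in WT saline, 82868 to 87846 in WT FAEE-SAP, 358650 to 368710 in cKO saline and 210730 to 230620 in cKO FAEE-SAP. Of 6 islet genes, 1 was called lower in WT with FAEE-SAP (*Sst*) and 3 were called higher in cKO than in WT after FAEE-SAP (*Sst*, *Gcg* and *Iapp*), with medians of -0.80 and 1.26. None of these calls held with RPKM as deposited, where the medians were 0.51 and 0.30, the sign in WT turned for 4 of the 6 genes, and *Ppy* was called higher in WT and lower in cKO than in WT after FAEE-SAP. Their summed level was 271 to 320 scaled RPKM in WT saline, 170 to 228 in WT FAEE-SAP, 290 to 358 in cKO saline and 411 to 427 in cKO FAEE-SAP. The part of these changes in the keratin values was not tested.

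**Figure D4:**
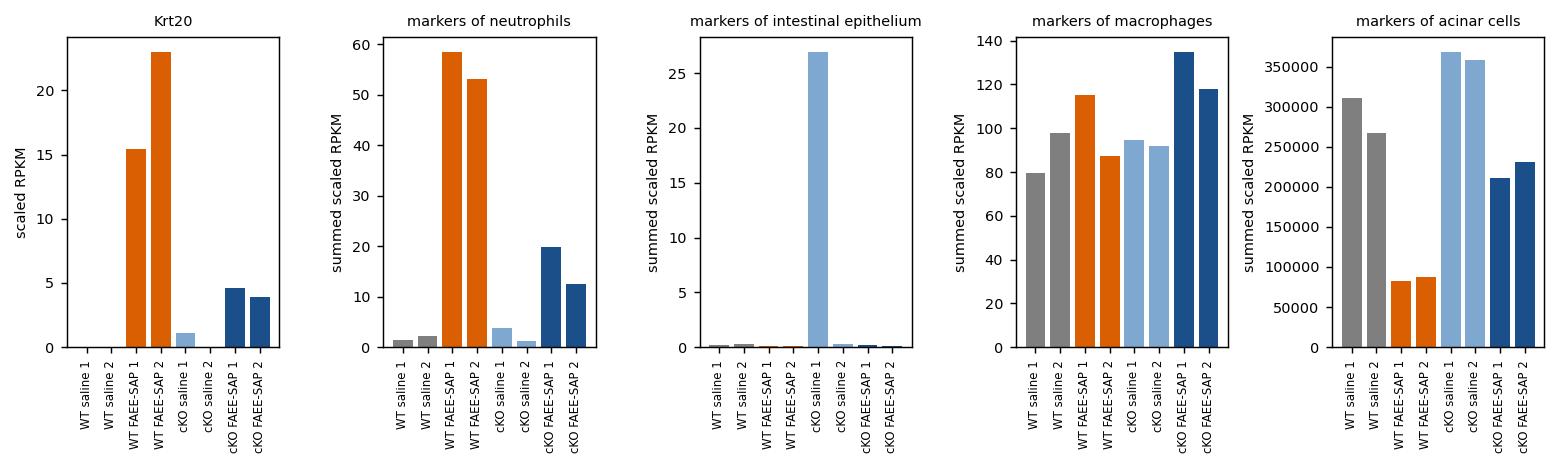
Scaled RPKM of *Krt20* and summed scaled RPKM of 4 marker lists (vertical axes, bars from 0) in each of the 8 libraries. Neutrophil markers and *Krt20* were highest in WT FAEE-SAP, acinar markers were lowest there, and intestinal markers stood at 27.0 in cKO saline library 1 against at most 0.298 elsewhere.

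Of 14 duct genes apart from the 9 members, 8 were tested in WT, 0 were called higher and 1 was called lower, *Tff2*, a trefoil peptide gene (log2 difference -2.51, adjusted p = 0.00195 in limma). *Tff2* was at 1042 and 1071 scaled RPKM in WT saline and 184 and 187 in WT FAEE-SAP, and made up nearly all of the list's sum. *Cftr*, the chloride channel gene of ducts, did not exceed 0.203 scaled RPKM in any library. Of the 8 tested, 3 had a positive and 5 a negative log2 difference. The largest positive one was that of *Ehf*, which encodes an epithelial transcription factor, at 1.64 and 1.27 in WT saline and 2.71 and 2.85 in WT FAEE-SAP (log2 difference 0.90, limma adjusted p = 0.0660). *Muc1*, a mucin gene of the apical membrane, was at 24.9 and 22.7 in WT saline and 16.2 and 10.6 in WT FAEE-SAP (log2 difference -0.85, limma adjusted p = 0.0864), with the sign turned with RPKM as deposited (0.46). With deposited values 7 of the 8 had a positive difference and 3 duct genes were called higher in WT, *Ehf*, *Prom1* and *Car2*, the last of which was tested only through the FAEE-SAP libraries.

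Genes of metaplasia and of pancreatic progenitors moved in part. Of 26 such genes, 20 were tested in WT and 2 were called higher with FAEE-SAP, 0 lower, with a median log2 difference of 0.45. These were *Mmp7*, a metalloproteinase gene (log2 difference 4.32, adjusted p = 0.00412 in limma), and *Cldn4*, a tight junction gene (3.04, adjusted p = 0.0165). *Mmp7* was at 1.18 and 0.593 scaled RPKM in WT saline, 15.6 and 22.5 in WT FAEE-SAP, 0.599 and 1.43 in cKO saline, and 2.66 and 6.49 in cKO FAEE-SAP. *Cldn4* was at 0.666 and 0.605, 3.86 and 9.18, 0.705 and 0.396, and 1.32 and 2.61 in the same order of groups. For both genes the WT FAEE-SAP libraries were above the other 6. *Cldn4* met the minimum RPKM in both FAEE-SAP libraries and in 1 WT saline library, so it was tested only through the group where it was high. In cKO 0 of 19 genes tested were called, with cKO saline library 1 or without it. From values as deposited, 14 of the 20 were called higher in WT, where 65.9% of all genes were, and 9 of the 20 lower in cKO than in WT after FAEE-SAP, where 39.6% of all genes were.

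Regulators of acinar identity were called in both directions. Of 10 genes tested in WT, 4 were called lower with FAEE-SAP and 1 higher. *Bhlha15*, which encodes a factor of secretory granule maturation, fell by 3.46 on the log2 scale, *Rbpjl* by 2.12, *Ptf1a* by 1.80 and *Gata4* by 1.46, the signs being the same with RPKM as deposited, where *Bhlha15* alone of these 4 was called. *Xbp1*, a factor of the unfolded protein response, rose by 1.39. After FAEE-SAP, *Bhlha15* was 2.91 higher in cKO than in WT (limma adjusted p = 0.0362) and was the 1 of 10 called. From values as deposited, *Bhlha15* was again called higher in that comparison and *Xbp1* was called lower.

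A list of 15 keratin partner and linker genes was examined, of which 14 are in the files and 11 were tested in WT. The list holds desmosomal and linker genes such as *Dsp*, *Jup* and *Plec*, other intermediate filament genes (*Vim* and *Des*) and the transcription factor gene *Trp63*. Of the genes tested, 0 were called in any comparison, while with RPKM as deposited 8 of 11 were called higher in WT (65.9% of all genes) and 6 of 11 lower in cKO than in WT after FAEE-SAP (39.6% of all genes). In WT FAEE-SAP *Jup* was at 7.59 and 10.8 scaled RPKM against 4.99 and 3.33 with saline, and *Plec* at 4.05 and 5.38 against 2.59 and 2.18, while *Dsp* was at 4.11 and 4.18 against 5.31 and 4.24 (log2 difference -0.19, or 1.10 with RPKM as deposited). Of the 10 genes of osteopontin receptors, 8 were tested in WT and 0 were called in any comparison, with a median log2 difference of 0.56 in WT. With deposited values 8 of 8 were called higher in WT (65.9% of all genes) and 5 of 8 lower in cKO than in WT after FAEE-SAP (39.6% of all genes). In WT 4 of the 8, *Cd44*, *Itga4*, *Itga9* and *Itgb3*, were tested only through the FAEE-SAP libraries, so their direction in that count follows in part from the filter. *Itgb1*, which encodes the shared beta chain, was the most abundant, at 14.2 and 14.3 with saline and 22.1 and 19.6 with FAEE-SAP in WT. *Cd44* was at 0.493 and 1.12 with saline and 1.79 and 1.36 with FAEE-SAP.

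Among the other keratins, 48 are listed in the files and 1, *Krt80*, passed the minimum RPKM and was tested. It was called in no comparison of scaled RPKM (log2 difference 0.16 in WT), but was called higher in WT with RPKM as deposited (1.35), where it was tested only through the FAEE-SAP libraries, and no keratin outside the 6 members had a group mean of 1 scaled RPKM. The summed level of these 48 keratins did not exceed 1.85 scaled RPKM in any library, beside 102 to 323 for the 6 member keratins.

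The genes whose levels ran most like a member were found over the 8 libraries among 7383 genes with a mean of at least 1 scaled RPKM. The libraries fall into 4 groups, so these correlations describe the group pattern and have no p-value. For *Krt8* they were *Med15* (r = 0.995), *Pim1* (r = 0.994) and *Krt18* (r = 0.992). For *Krt20* they were *Prdx5* (r = 0.975), the neutrophil marker *S100a8* (r = 0.972) and *Itpa* (r = 0.971). For *Sox9* they were *Zkscan3* (r = 0.975), *2310009A05Rik* (r = 0.973) and *Fam114a1* (r = 0.962). *S100a8* was at 0.139 and 0.304 scaled RPKM in WT saline, 18.6 and 15.8 in WT FAEE-SAP, 0.983 and 0.345 in cKO saline, and 4.39 and 2.63 in cKO FAEE-SAP.

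The size of these differences depended on the scaling. With RPKM as deposited, the median gene tested was 1.24 higher with FAEE-SAP in WT on the log2 scale and stood at -0.91 in cKO against WT after FAEE-SAP. *Krt8*, *Krt18*, *Krt20* and *Spp1* lay above that median in WT, at 2.92, 2.53, 8.43 and 3.11. *Sox9* and *Onecut1* were above 0 but below the median gene, at 0.77 and 0.70. In cKO against WT after FAEE-SAP, *Krt20* was at -3.09 and *Krt8* at -1.997, both below the median.

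**Figure D5:**
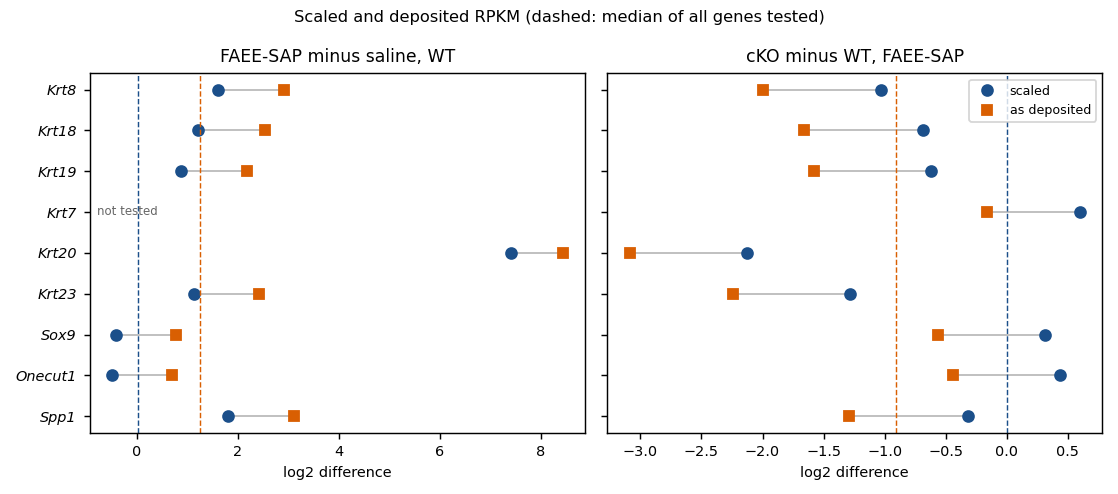
Log2 differences (horizontal axes) of the 9 genes for FAEE-SAP minus saline in WT and for cKO minus WT after FAEE-SAP, from scaled RPKM (circles) and from RPKM as deposited (squares), with dashed lines at the median of all genes tested. The squares are shifted with the median, to 1.24 and -0.91, and *Sox9*, *Onecut1* and *Krt7* change sign.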

How the data were processed

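Pancreas RNA from 8 libraries was sequenced paired-end from a directional kit. Per the paper's methods and the submitters' processing notes, reads were filtered with fastp and mapped to GRCm38.p6 with CLC Genomics Workbench. The authors deposited RPKM values for 48709 genes per library, and how they were counted is not given in the sources used here.

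Library totals were recovered from low values and GENCODE vM21 exonic lengths (46325 symbols matched, 95.1%). Of values under 20 reads, 84.0% to 85.5% were whole within 0.1 reads, and the reads of matched genes summed to 100.3% to 105.7% of the totals, so reads are approximate. RPKM was divided by a median-of-ratios factor over 10985 genes. Genes with RPKM of at least 0.5 in at least 2 libraries of a comparison were tested as log2(scaled RPKM + 0.1) in limma 3.58.1 (R 4.3.3) with an intensity trend, on the libraries of the comparison, or all 8 for the interaction. P-values were adjusted by Benjamini-Hochberg over all genes tested. The procedure was tested on simulated data. Ratios and read intervals used Python 3.11.15 and scipy 1.17.1.

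The members and gene lists were chosen with earlier results of these data known. Named genes are the 9 members, up to 5 called genes of a list, the 3 genes most like *Krt8*, *Krt20* and *Sox9*, and a list's defining genes beside a member. *Krt8-ps*, *Dsp*, *Jup*, *Plec*, *Itgb1*, *Cd44*, *Muc1*, *Ehf*, *Prom1*, *Car2*, *Cftr*, *Gpm6a*, *Msln*, *Ppy*, *Gpnmb*, *Vim*, *Des*, *Trp63*, *Itga4*, *Itga9* and *Itgb3* were named after their values were seen. Alternatives were other scalings, filters, pseudocounts, models and units, replicate number as a block, and each library left out.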

Additional observations from a re-analysis of the deposited data

Results flagged for a closer look

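*Krt7* was singled out because, in scaled RPKM, both WT FAEE-SAP libraries lay below both WT saline libraries, while both cKO FAEE-SAP libraries lay above both cKO saline libraries. The interaction was 0.56 on the log2 scale (SE 0.36, 95% interval -0.29 to 1.41, limma adjusted p = 0.562), so the difference between the genotypes did not pass the test. *Krt7* was at most 0.481 scaled RPKM in any library, and with RPKM as deposited the interaction was 0.03. The direction in WT turned with RPKM as deposited, at 0.457 and 0.628 with FAEE-SAP against 0.315 and 0.301 with saline.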

How the results depend on the processing

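The calls of *Krt8*, *Krt18* and *Krt20* in WT with FAEE-SAP held under every other scaling, filter, pseudocount, model and unit tried, apart from the fits that left out a library. Leaving out a WT FAEE-SAP library took *Krt20* below the minimum of 2 libraries, so that it was not tested. With RPKM as deposited, 7270 of 10894 genes were called for treatment in WT with 6 of 8 members (*Krt19* and *Krt23* added), 15 in cKO, 4427 of 11008 for cKO against WT after FAEE-SAP with 6 of 9 members, 2 after saline and 791 of 11133 for the interaction with 2 of 9 members (*Krt8* and *Krt18*). The split of higher calls in WT went from 45.1% to 98.8%, and for cKO against WT after FAEE-SAP from 69.8% to 1.65%. Signs turned with RPKM as deposited for *Sox9* (0.77) and *Onecut1* (0.70) in WT, *Krt23* (0.49) and *Sox9* (0.28) in cKO, *Krt7* (-0.16), *Sox9* (-0.56) and *Onecut1* (-0.44) for cKO against WT after FAEE-SAP, *Krt8* (-0.30), *Krt18* (-0.27) and *Sox9* (-0.073) after saline, and *Sox9* (-0.49) and *Onecut1* (-0.047) in the interaction. *Krt8* after saline was -0.025 with factors from the 4 libraries alone. With RPKM as deposited the median of all genes tested moved to 1.24 in WT, 0.57 in cKO, -0.91 for cKO against WT after FAEE-SAP, -0.25 after saline and -0.63 for the interaction. The cause of the other changes was not tested.

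With no minimum RPKM, 269 genes were called for treatment in WT and 0 in cKO, for cKO against WT after FAEE-SAP (with 0 members) and for the interaction, where more genes enter the adjustment. A pseudocount of 1 gave 431 genes in WT and 24 for the interaction, a pseudocount of 0.01 gave 1 and a minimum RPKM of 2 gave 15 for the interaction. Without the trend, 43 genes and 0 members were called for cKO against WT after FAEE-SAP and 3 genes for the interaction. With all 8 libraries in 1 model 15 genes were called in cKO and 295 for cKO against WT after FAEE-SAP.

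Leaving out each library in turn gave 83 to 390 genes and 0 to 3 members for treatment in WT, 0 to 5 genes in cKO, 0 to 67 genes and 0 members for cKO against WT after FAEE-SAP, and 0 to 4 genes and 0 to 1 members for the interaction. In cKO, *Krt23* ran from -0.70 to 0.45 and *Onecut1* from -0.074 to 0.23. After saline, *Krt8* ran from -0.10 to 0.10, *Krt18* from -0.078 to 0.14, *Krt19* from -0.60 to 0.045, *Krt23* from -0.60 to 0.55, *Sox9* from -0.10 to 0.51, *Onecut1* from -0.41 to 0.14 and *Spp1* from -1.30 to 0.80. In the interaction, *Spp1* ran from -1.12 to 0.98 and *Sox9* from -0.20 to 0.42.

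The labels number the replicates without saying that a number pairs libraries. Deviations of same-numbered libraries correlated at -0.17 between the WT groups, 0.40 between the cKO groups, 0.30 after FAEE-SAP and -0.32 after saline. With replicate number as a block, 136 genes were called in cKO, 717 genes and 3 members (*Krt8*, *Krt20* and *Krt23*) for cKO against WT after FAEE-SAP, and 0 genes for the interaction. A block with the WT saline numbers exchanged, chosen after seeing the data, gave 1110 genes for treatment in WT, 2 after saline and 68 for the interaction. With 2 libraries per group and few reads for *Krt7* and for *Krt20* after saline, smaller differences could not be detected.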
